A study of Homo sapiens with 8 samples.

Results

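The comparison described here is that of Hs578T cells depleted of GPX1 with control Hs578T cells, across all genes. Its libraries were chosen by their titles, 2 named for the control and 2 for an siRNA against GPX1 (siGPX1), which makes 4 of the 8 libraries of the series. Hs578T is a human triple-negative breast cancer cell line, that is, a line scored as lacking oestrogen receptor, progesterone receptor and amplified HER2. The other 4 libraries are control and siGPX1 pairs of MDA-MB-231, a second triple-negative line, and are used here to share the estimate of the spread and to test where the effect of the depletion differed between the lines. The study concerned GPX1 and metastasis, and gene expression was measured by sequencing total RNA. The genotype tag calls the depleted libraries Gpx1-/-, while their titles name an siRNA. The source label counts upward through the 4 Hs578T libraries as if each were another line (HS578T, HS579T, HS580T, HS581T), while the cell line tag reads HS578T throughout. Neither the kind of control nor the number of siRNA sequences, the dose or the time after transfection is given in the sources used here. Throughout this text, depletion names the comparison of siGPX1 with control libraries. Loss of GPX1 and any other effect of the siRNA cannot be told apart in this design. Nothing says that the replicates came from separate cultures, so the spread that p-values rest on may be technical.

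GPX1 is a selenoenzyme that uses glutathione to reduce hydrogen peroxide and organic hydroperoxides in the cytosol and mitochondria. Its selenocysteine is inserted at a UGA codon, and in the cell it shares its substrates with catalase, the peroxiredoxins and the other glutathione peroxidases. Peroxide also acts as a signal, through the oxidation of phosphatases, kinases and transcription factors, and NRF2 is the factor best known for raising antioxidant genes when oxidants accumulate.

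Each library held between 12905808 and 14216365 expected counts over 23686 gene symbols, and 14249 genes passed the filter on low counts. The 4 Hs578T libraries held 14161659 and 13561724 counts (controls, replicates 1 and 2) and 13174546 and 13537405 counts (siGPX1). The siGPX1 replicates of Hs578T differed from each other more than any other pair of replicates, with a mean chi-square of 4.05 per gene against 1.97 in the controls. It was 1.71 and 1.36 in the MDA-MB-231 control and siGPX1 pairs. Because the 4 groups share the estimate of the spread, standard errors and p-values for Hs578T may be too small. The marker genes of receptor status and of cell type stood at the following levels. ESR1, the oestrogen receptor, had between 0 and 3 counts in every Hs578T library, PGR lay between 0.60 and 1.02 TPM and ERBB2 between 30.9 and 35.2 TPM (transcript abundance per length). The cell type is labelled epithelial. The epithelial adhesion genes EPCAM and CDH1 had between 0 and 3 counts in each library. Keratins, which mark epithelia, differed among themselves. In the controls KRT18 stood at 322 and 321 TPM, KRT17 at 105 and 117 TPM and KRT8 at 25.0 and 28.3 TPM. KRT5, KRT6A and KRT6B had 0 counts in every Hs578T library, and KRT19 had at most 4. VIM, the mesenchymal intermediate filament, stood at 5823 and 5856 TPM in the controls and 6781 and 6651 TPM in the siGPX1 libraries. Most leukocyte markers were low, with 11 of 15 not tested and 7 at 0 counts in all 4 libraries. The sum of the 4 tested was between 78.8 and 80.9 CPM in the controls and between 56.9 and 62.4 CPM after depletion. Most of that sum was CD68, with 934 and 884 counts in the controls and 561 and 644 counts after depletion. Of 8 endothelial markers, CDH5, VWF, TEK, TIE1 and CLDN5 were not tested, and the sum of the 3 tested was at most 11.7 CPM in any library. CPM, counts relative to a TMM-scaled library size, is the unit of all values for a gene across libraries below, with control replicates 1 and 2 given first and siGPX1 replicates 1 and 2 after them.

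The targeted gene was strongly lower in both siGPX1 libraries. GPX1 fell from 84.03 and 84.2 to 3.57 and 3.42 CPM, which leaves 4.16% of the control level. The log2 change was -4.59 ± 0.10 (SE) and edgeR's quasi-likelihood test gave an adjusted p of 1.46e-14. The depleted libraries lay together and far below both controls. In MDA-MB-231 the log2 change was -4.84, and the difference between the lines was not called (adjusted p = 0.409 in edgeR's quasi-likelihood test, Benjamini-Hochberg adjusted). Among the other glutathione peroxidases, GPX8, which resides in the endoplasmic reticulum, fell by 0.30 on the log2 scale (from 138 and 146 to 118 and 113 CPM). GPX4, which reduces lipid hydroperoxides and guards against ferroptosis, stood at 193 and 198 CPM in the controls and 185 and 186 CPM after depletion, a log2 difference of -0.08 that was not called, although 7 of the 15 alternative settings called it. GPX7 was not called either, and GPX3 had at most 0.549 CPM in every Hs578T library. No glutathione peroxidase was called higher.

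Depletion of GPX1 was accompanied by many small changes and few large ones. A gene is called here when its adjusted p from edgeR's quasi-likelihood test, after Benjamini-Hochberg adjustment over all 14249 genes, was under 0.05. By that rule 4074 genes (28.6% of those tested) were higher and 3149 (22.1%) were lower in the siGPX1 libraries. The excess of rises was not stable: in 7 of the 15 alternative settings more genes were lower than higher, with 3363 higher and 3457 lower under a stricter filter (5 CPM in 2 libraries), 3188 and 3352 with Hs578T libraries alone, 3367 and 3563 by limma on log2(TPM + 1), and 3438 and 3477 without control replicate 1 of MDA-MB-231, near which the counts without each of its other libraries lay. Among the called genes, 395 (2.77% of all genes tested) were higher and 521 (3.66% of all tested) lower by over 2-fold. By over 8-fold, 24 were higher and 16 lower. With the stricter filter 236 genes were higher by over 2-fold, and by limma on log2(TPM + 1) 188. The 2 siGPX1 libraries lay entirely above or below the 2 controls for 72.2% of genes. The median log2 change over all tested genes was 0.04. With the stricter filter, by limma on log2(TPM + 1) and without any single MDA-MB-231 library it was 0. With Hs578T libraries alone it was -0.004. These are the settings in which more genes were lower than higher. With 50.7% of genes called, a list of genes is described below by how its counts and its median stand against these shares, and the share called says little by itself. Counts near 28.6% higher and 22.1% lower are no trait of the members of a list.

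**Figure D1:**
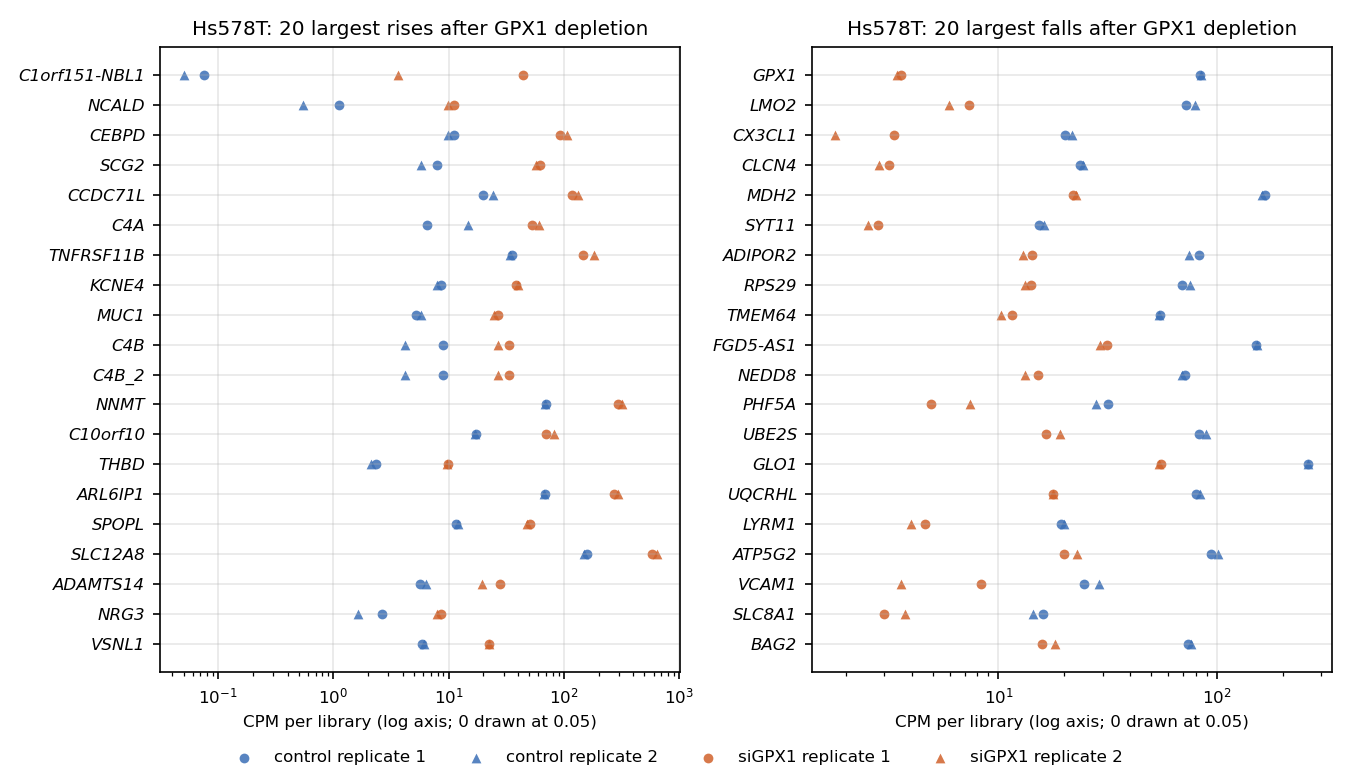
The plot shows the normalised level (CPM, log axis) of the 20 genes with the largest rises and the 20 with the largest falls in Hs578T, among genes averaging at least 5 CPM, with 1 point per library (blue controls, orange siGPX1). Controls and siGPX1 libraries do not overlap for any of the 40 genes, which was part of how they were chosen, and the siGPX1 replicates of C1orf151-NBL1 lie far apart.

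The largest rises included a transcription factor, secreted proteins, complement genes and calcium sensors. CEBPD, a transcription factor of the C/EBP family that is induced in the acute-phase response, rose 9.55-fold (from 11.1 and 9.88 to 92.9 and 107 CPM; log2 3.25 ± 0.10 (SE)). Secretogranin II, a protein of secretory granules, is encoded by SCG2, which rose 8.66-fold, from 7.97 and 5.72 to 62.2 and 56.9 CPM. TNFRSF11B, the gene of osteoprotegerin, a secreted decoy receptor for RANKL, went from 35.3 and 33.9 to 145 and 183 CPM. In all 3 genes both siGPX1 libraries stood far above both controls. NNMT, which methylates nicotinamide, rose 4.49-fold (from 69.3 and 68.1 to 296 and 321 CPM), and SLC12A8, a solute carrier, rose 3.97-fold (from 159 and 149 to 586 and 637 CPM). MUC1, a membrane mucin, went from 5.19 and 5.80 to 26.95 and 24.9 CPM. KCNE4, a subunit that modulates potassium channels, went from 8.50 and 7.997 to 38.3 and 39.96 CPM. THBD, the thrombin receptor thrombomodulin, was low in the controls and rose from 2.33 and 2.12 to 9.86 and 9.77 CPM. The calcium sensors NCALD and VSNL1 both rose, NCALD from 1.13 and 0.549 to 11.2 and 9.85 CPM and VSNL1 from 5.87 and 6.12 to 22.5 and 22.4 CPM. Others in the group were CCDC71L (5.66-fold), C10orf10 (4.45-fold), SPOPL, an adaptor of ubiquitin ligases (4.17-fold), ARL6IP1, which shapes the endoplasmic reticulum (4.17-fold), ADAMTS14, a procollagen protease (3.95-fold), and the neuregulin NRG3 (3.82-fold).

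Some of these values are uncertain by construction. C4A and C4B encode near-identical complement components, and C4B and C4B_2 carry the same values in all 4 libraries, so reads were shared out among copies. C1orf151-NBL1 is a read-through of neighbouring genes, with 1 and 0 counts in the controls and 517 and 45 in the siGPX1 libraries, replicates that lie over 10-fold apart. Its partner NBL1, a secreted BMP antagonist, rose by 0.93 on the log2 scale (from 169 and 163 to 286 and 344 CPM).

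The largest falls after GPX1 itself were of LMO2, CX3CL1, CLCN4 and MDH2. LMO2, a LIM-domain partner of transcription factors, fell from 72.6 and 79.8 to 7.31 and 5.94 CPM, to 8.69% of control. CX3CL1, the membrane-bound chemokine fractalkine, fell from 20.1 and 21.8 to 3.32 and 1.79 CPM. CLCN4, an endosomal chloride-proton exchanger, fell from 23.6 and 24.4 to 3.15 and 2.85 CPM. MDH2, the mitochondrial malate dehydrogenase of the TCA cycle, fell from 167 and 161 to 21.9 and 22.7 CPM, a log2 change of -2.88 ± 0.06 (SE) with an adjusted p of 9.12e-15 by edgeR's quasi-likelihood test. For each of these genes the siGPX1 libraries stood far below both controls. GLO1, the glyoxalase that clears methylglyoxal with glutathione, was more abundant and fell from 263 and 260.3 to 55.8 and 54.6 CPM. Proteins of ubiquitin and ubiquitin-like conjugation were represented by NEDD8 (from 71.5 and 68.99 to 15.1 and 13.2 CPM) and UBE2S (from 82.7 and 88.9 to 16.5 and 19.2 CPM), the conjugating enzyme that extends chains for the anaphase-promoting complex. VCAM1, the adhesion receptor for the integrin alpha4beta1, fell from 24.8 and 28.9 to 8.33 and 3.58 CPM, with the siGPX1 replicates over 2-fold apart. The rest of the 20 lay between 16.9% and 22.8% of control. They were SYT11, ADIPOR2 (an adiponectin receptor), RPS29 (a small-subunit ribosomal protein), TMEM64, the antisense transcript FGD5-AS1, PHF5A (a splicing factor of the SF3B complex), UQCRHL, LYRM1, ATP5G2 (the c subunit of ATP synthase), the sodium-calcium exchanger SLC8A1 and the HSP70 co-chaperone BAG2. UQCRHL is a near copy of UQCRH, a complex III subunit that fell alike (from 84.4 and 91.3 to 20.4 and 21.2 CPM), and the strand on which FGD5-AS1 was counted is not stated.

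Many of the genes that fell share a short word in their 3′ untranslated regions (3′ UTRs). The word is GGGCATCA, which also occurs in the coding sequence of GPX1, in 5 of the 6 GPX1 transcripts of GENCODE release 29. The sites below show it, or either of the 7-base words inside it (GGGCATC and GGCATCA), in capitals with 7 bases on each side, 5′ to 3′ on the transcript. They are examples, 1 site a gene, from GPX1 and from genes described in this text, chosen because their RNA fell. RPS29 is shown with both its sites, the full word lying only in a long annotated 3′ UTR of 6828 bases and the 7-base word in a short one of 95.
GPX1 coding sequence: ccagtttGGGCATCAggagaac
GLO1 3′ UTR: tttaagaGGGCATCAatcagct
UQCRHL 3′ UTR: atcatctGGGCATCAgaatatt
LYRM1 3′ UTR: agaagatGGGCATCAgaaataa
SLC8A1 3′ UTR: ttcccagGGGCATCAtcatgtt
OAS3 3′ UTR: ctggcctGGGCATCAcaagcca
LMO2 3′ UTR: agtccccGGGCATCtttgggg
CLCN4 3′ UTR: gacaaagGGGCATCggcatgt
MDH2 3′ UTR: ttatgaaGGCATCAtgtcact
RPS29 long 3′ UTR: ggtctgaGGGCATCAttctttg
RPS29 short 3′ UTR: ttatccgGGGCATCtactcaa
NEDD8 3′ UTR: ataatgaGGCATCAtatatcc
PHF5A 3′ UTR: attcacaGGCATCAtcatagc
CSF1 3′ UTR: acttggtGGCATCAgagcagg
TXNRD1 3′ UTR: tttggcaGGGCATCgaaggga
SQSTM1 3′ UTR: tcacgaaGGGCATCcgcaatg
TIMP2 3′ UTR: ctgttctGGCATCAggcacct
WWTR1 3′ UTR: cttctgaGGGCATCttggtcc
CDH11 3′ UTR: atgttacGGCATCAcacttat
SLBP 3′ UTR: ttttataGGCATCAaagtatt
IL11 3′ UTR: gcctgggGGGCATCtgtgcct

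Across the 13094 tested genes other than GPX1 with a 3′ UTR of at least 30 bases, the shares called higher and lower differed with the presence of the word. The full 8-base word was present in 337 genes, of which 51.3% were called lower and 12.5% higher, with a median log2 change of -0.38. A 7-base word without the full one was present in 1552 genes, of which 41.8% were lower and 18.8% higher (median -0.16). With neither, 19.5% of 11205 genes were lower and 32.1% higher (median 0.07). Read the other way, 46.6% of genes that fell by 2- to 4-fold held a word, against 11.9% of genes not called and 9.60% of genes that rose by 2- to 4-fold. Of the 20 largest falls 11 held a word, 5 of them the full one, and of the 20 largest rises C10orf10 and THBD did. GPX1, CX3CL1, SYT11, ADIPOR2, UBE2S, ATP5G2, VCAM1 and BAG2 held none in their 3′ UTRs, and FGD5-AS1 had no 3′ UTR to search. A match is a description of letters in the transcript, and its part in any fall was not tested. The word was chosen with earlier results of these data known, so these shares are no independent support for it. A longer 3′ UTR, or more transcripts of a gene, gives more room for a match. Neither was taken into account, and no other word was counted in the 3′ UTRs for comparison. Counts over members without a word are also given below for lists in which they move by over 1.5 times. Such counts stand against the 32.1% higher and 19.5% lower of all genes without a word. Leaving out genes with a word takes falls from any list, so the shares over all genes are not their reference.

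**Figure D2:**
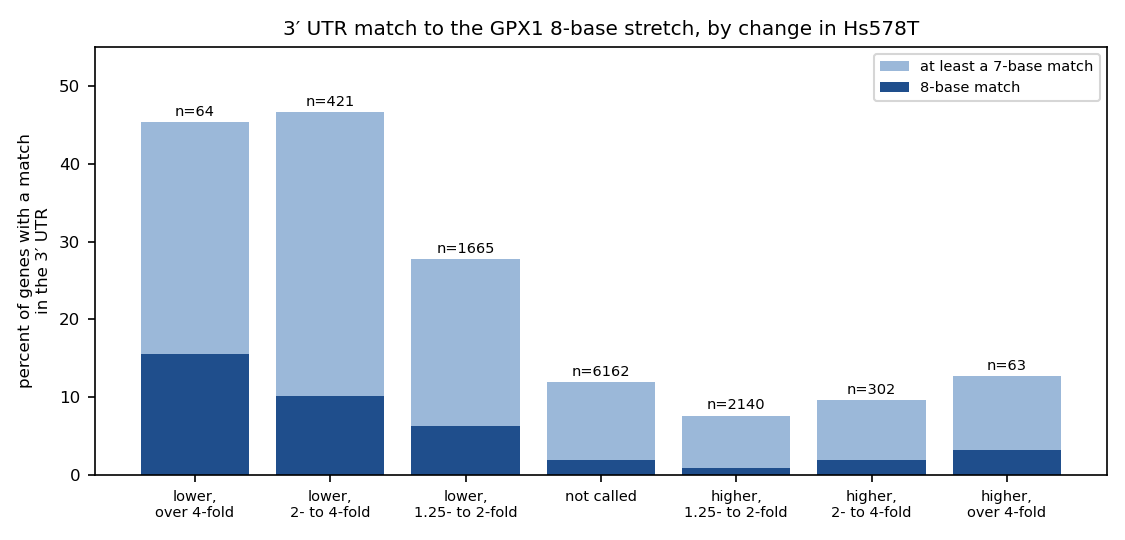
Bars give the percentage of genes whose 3′ UTR held the 8-base word (dark) or at least a 7-base word (light), by size and direction of the change in Hs578T, with the number of genes above each bar; genes called with changes under 1.25-fold are not drawn. The share is 45.3% and 46.6% among genes that fell by over 2-fold and between 7.62% and 12.7% among genes that rose.

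The 10 RNAs with the largest gain in TPM were TMSB4X, ACTG1, FN1, ENO1, FTL, TMSB10, VIM, FTH1, LDHA and PTMA. TMSB4X, which encodes the actin-sequestering thymosin beta-4, rose from 6576 and 6660.5 to 11472 and 12035 TPM, and ACTG1, cytoplasmic gamma actin, rose from 4929 and 4889 to 8389 and 8608 TPM. FN1, fibronectin, was among the most abundant RNAs of the line and rose from 11039 and 10720.5 to 15068 and 13174 TPM, with a CPM ratio of 1.35. ENO1 and LDHA, enzymes of glycolysis and lactate formation, rose by 0.56 and 0.46 on the log2 scale. Both ferritin chains rose, FTL by 0.48 and FTH1 by 0.35. Among the 10 RNAs with the largest loss in TPM were genes of translation. RPL8, a large-subunit ribosomal protein, fell from 4117 and 4232 to 1120.4 and 1120.0 TPM. RPL3, EEF1A1 and EEF2, the last pair being elongation factors, fell to 58.8%, 80.95% and 76.96% of control in CPM. MT2A, a metallothionein, fell from 1659.6 and 1617 to 716 and 751 TPM. SLC25A6, an adenine nucleotide carrier of the inner mitochondrial membrane, fell to 30.7% of control, and CCL2, a monocyte chemokine, to 57.2%. IGFBP3, a binding protein of insulin-like growth factors, fell to 71.6% and UBB, a polyubiquitin gene, to 73.8%. C17orf76-AS1, an antisense transcript, fell to 27.8%. Over all 82 cytosolic ribosomal protein genes tested, 12 were higher and 24 lower (median -0.03), and the many processed pseudogenes of this family make single values uncertain. The count of those higher was 1 without control replicate 1, 6 without control replicate 2 and 3 without siGPX1 replicate 2 of Hs578T, and 1 without any single MDA-MB-231 library. In bulk RNA such as this, fewer cells of a kind and less RNA per cell cannot be told apart.

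**Figure D3:**
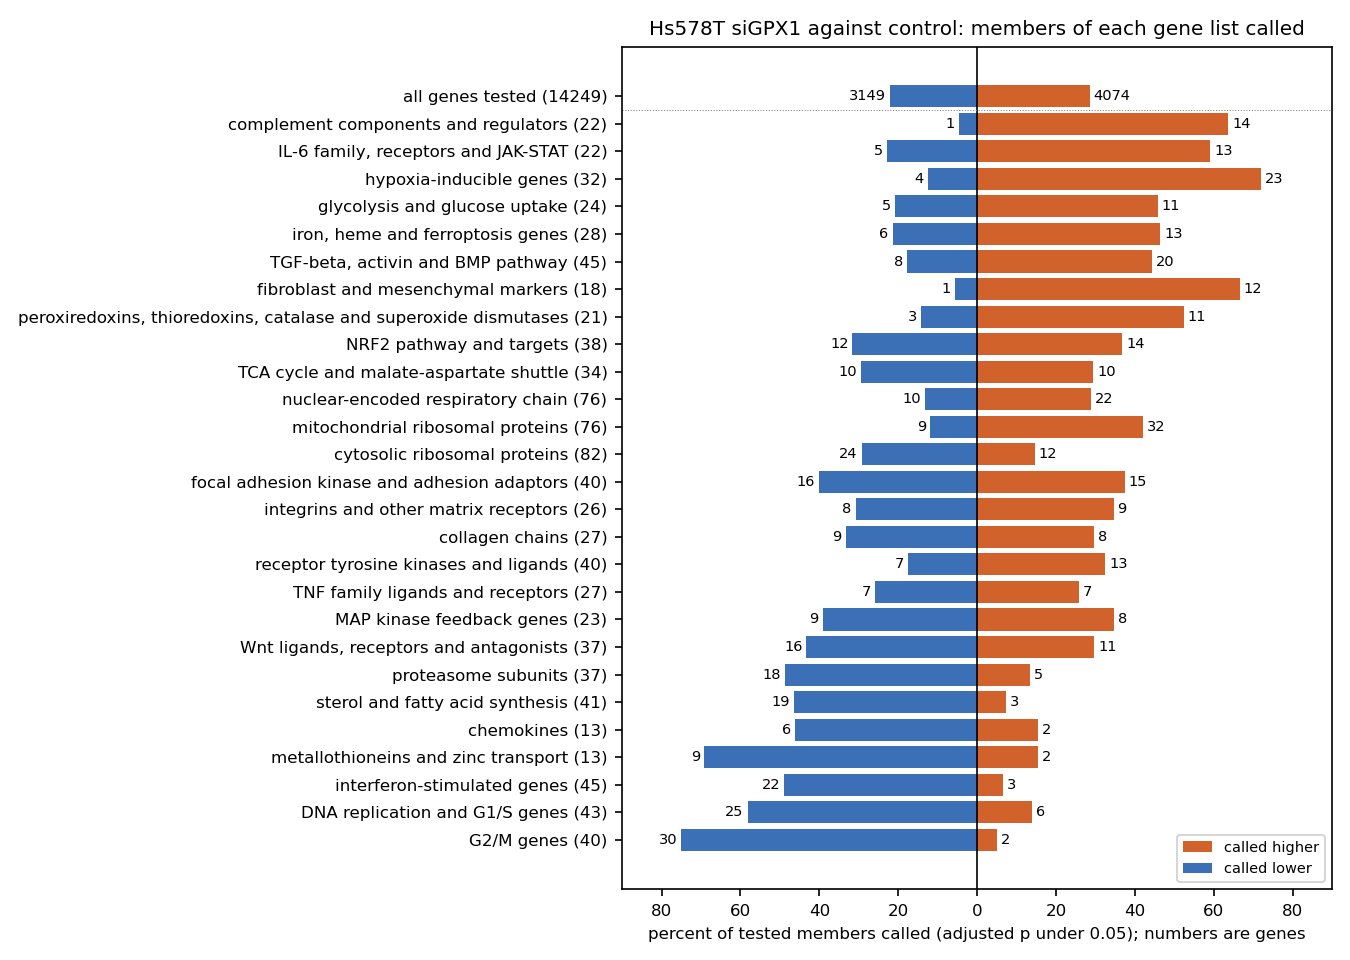
Horizontal bars give, for all tested genes and for 27 gene lists, the percentage of tested members called higher (orange, right) and lower (blue, left) in Hs578T, with the number of genes at each bar and of tested members after each name. Complement, IL-6 family and hypoxia-inducible genes lie mostly to the right, with 14, 13 and 23 higher, and G2/M genes mostly to the left, with 30 lower.

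Most complement genes tested were higher. Of 22 tested components and regulators of this blood-borne defence cascade, 14 were called higher, 8 of them by over 2-fold, and 1 was lower, with a median log2 change of 0.85 against 0.04 over all genes. C1R and C1S, the proteases of the first component, were the most abundant of those over 2-fold: C1R rose from 133 and 127 to 269 and 266 CPM, and C1S from 76.1 and 80.4 to 206 and 196 CPM. C3, on which all routes of activation converge, rose 3.18-fold from a low level (from 6.39 and 7.60 to 23.3 and 21.2 CPM). CFB, the protease of the alternative route, rose from 32.5 and 33.1 to 64.7 and 58.8 CPM, and CFI, which inactivates C3b and C4b, rose from 14.4 and 15.7 to 39.02 and 36.9 CPM. C2 was called as well but had under 2 CPM in every library. C4A, C4B and C4B_2 also rose by over 2-fold, and C4B and C4B_2 carry the same values. Counts that take in these copies hold the same reads more than once. The single gene lower was CD59, the membrane inhibitor of the attack complex, which fell from 1009 and 1009.9 to 634 and 606 CPM. CD46, another membrane regulator, rose by 0.44 on the log2 scale. In MDA-MB-231 7 of the 22 genes were higher, and the change differed between the lines for 9.

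More genes of IL-6 family signalling were higher than lower, while C/EBP factors and acute-phase genes went both ways. IL-6 family cytokines bind receptors that share the gp130 chain (IL6ST) and act through JAK kinases and STAT3, which induces SOCS3 as a feedback inhibitor. Of 22 tested genes of the family, 13 were higher and 5 lower, with a median of 0.45. Of the 19 with a searched 3′ UTR and no word, 12 were higher and 3 lower. IL6 itself rose from 45.2 and 50.3 to 89.2 and 93.5 CPM. Receptor chains rose together: IL6ST from 2229.7 and 2143 to 3414 and 3369 CPM, OSMR from 431 and 393 to 676 and 648 CPM and LIFR from 85.6 and 85.2 to 179 and 172 CPM. STAT3 rose 2.14-fold, from 152 and 144 to 319 and 315 CPM. SOCS3 rose 3.13-fold (from 38.5 and 40.1 to 107 and 139 CPM), and the related inhibitors SOCS2 and CISH rose by 1.24 and 1.54 on the log2 scale from levels under 5 CPM. SOCS1 was called with a log2 change of 1.90 ± 0.40 (SE) but stayed under 2 CPM in every library. Members that fell included the JAK family kinase TYK2 (to 53.02% of control), the cytokines IL11 (to 40.4%) and CLCF1 (to 69.3%), and LIF (to 77.9%). Of 15 C/EBP factors and acute-phase genes 5 were higher and 4 lower (median 0.09). CEBPB rose from 55.6 and 55.5 to 119 and 141 CPM beside CEBPD, whereas CEBPA fell from 5.34 and 4.86 to 1.19 and 1.14 CPM. JUNB, an AP-1 subunit, rose by 0.54 on the log2 scale.

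**Figure D4:**
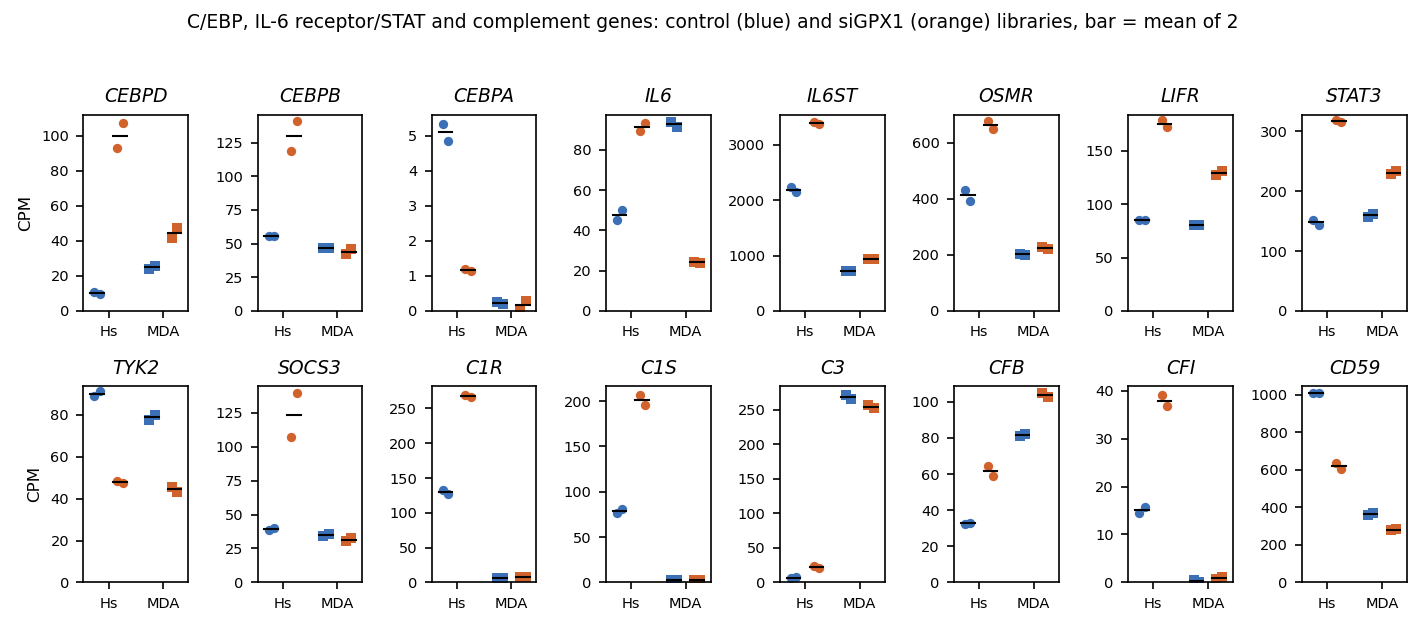
Each panel shows 1 gene, with its level in CPM from 0 on the vertical axis, for 2 control (blue) and 2 siGPX1 (orange) libraries of Hs578T (Hs, circles) and MDA-MB-231 (MDA, squares), and a bar at the mean of each pair. In Hs578T all genes but CEBPA, TYK2 and CD59 lie higher after depletion; IL6 lies lower in MDA-MB-231, and C3 was 271 and 266 CPM there in the controls.

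Hypoxia-inducible genes were the list with the largest share called higher among those plotted. These genes respond to the HIF factors, which prolyl hydroxylases of the EGLN family mark for destruction when oxygen is present. Of 32 tested, 23 were higher, 5 of them by over 2-fold, and 4 lower, with a median of 0.47. Of the 27 with a searched 3′ UTR and no word, 21 were higher and 1 lower. The HIF alpha subunits themselves were among them: EPAS1, which encodes HIF-2 alpha, rose from 57.5 and 53.7 to 177 and 165 CPM, and HIF1A rose from 387 and 375 to 646 and 647 CPM. BHLHE40, a transcriptional repressor, rose from 112 and 109 to 264 and 274 CPM. VEGFA, the angiogenic growth factor, rose from 475 and 457 to 864 and 883 CPM, and PDK1, the kinase that holds pyruvate dehydrogenase inactive, rose from 50.5 and 47.4 to 104 and 98.5 CPM. EGLN1 rose 1.98-fold, and EGLN3 and CA9 rose 3.05- and 2.33-fold but had under 5 CPM. SLC2A1, the glucose carrier GLUT1, rose from 138 and 139.9 to 238 and 231 CPM. The falls were of CA12, a carbonic anhydrase (to 55.1% of control), NDRG1 (to 61.6%), the collagen crosslinker LOX (to 63.1%) and ERO1L (to 87.7%). Of 24 glycolysis and glucose uptake genes, 11 were higher and 5 lower, and the median was 0.08. The higher ones included PGK1 (from 685 and 627 to 926 and 973 CPM) as well as ENO1 and LDHA, and SLC16A3, a lactate exporter, fell by 0.48 on the log2 scale. In MDA-MB-231 7 of the 32 hypoxia-inducible genes were higher, and the change differed between the lines for 16. VEGFA was 1 of them, with a log2 change of -0.32 there (adjusted p of the difference 2.47e-09 by edgeR's quasi-likelihood test).

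The core letters of the element that HIF binds, ACGTG, were counted on both strands of the 300 bases from 250 before to 50 after each start in the RefSeq promoter table (GRCh38.p14). They were present in 12 of 29 promoters (41.4%) of hypoxia-inducible genes called higher and in 51.3% of the promoters of all tested members, against 21.4% of all 35116 promoters. The share was thus no larger in the members called higher than in the whole list. Among promoters of G2/M genes called lower, ACGTG was present in 13 of 31 (41.9%), so the share does not set the genes that rose apart. The 250 bases before the start of BHLHE40 are shown because the gene combined a large rise with abundant counts (chr3:4979187-4979436, plus strand), with ACGTG on either strand in capitals. The 4 matches include an overlapping pair in CACGTG, which is also the letter sequence of a general E-box.
BHLHE40 promoter: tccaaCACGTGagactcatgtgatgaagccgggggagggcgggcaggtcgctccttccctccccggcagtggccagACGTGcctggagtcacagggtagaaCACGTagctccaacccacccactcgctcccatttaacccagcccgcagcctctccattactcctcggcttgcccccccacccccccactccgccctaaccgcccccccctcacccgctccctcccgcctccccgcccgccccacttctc

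Antioxidant genes split between rises and falls. Of 21 tested genes of the peroxiredoxins, thioredoxins, catalase and superoxide dismutases, 11 were higher and 3 lower, with a median of 0.14. SRXN1, the sulfiredoxin that restores overoxidised peroxiredoxins, rose from 102 and 104 to 166 and 183 CPM, and SOD2, the mitochondrial superoxide dismutase, rose from 72.2 and 70.5 to 132 and 121 CPM. PRDX1, the most studied cytosolic peroxiredoxin, rose by 0.36 on the log2 scale, and CAT, the peroxisomal catalase, fell by 0.35. TXNIP, which binds and restrains thioredoxin, rose 2.59-fold from low counts (from 3.99 and 3.21 to 9.18 and 9.52 CPM). TXNRD1, the cytosolic thioredoxin reductase and itself a selenoprotein, fell from 455 and 471 to 159.7 and 156 CPM, to 34.1% of control, and its 3′ UTR held a 7-base word. Among 14 other selenoproteins 5 were higher and 4 lower: SEPW1 fell to 54.97% and SELT to 63.3% of control. Of the 10 without a word, 5 were higher and 1 lower. Without any single library of the 8, the selenoproteins called higher numbered 2 or 3, and without control replicate 1 or siGPX1 replicate 2 of Hs578T or any MDA-MB-231 library the peroxiredoxin and related genes called higher numbered 7.

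Of 38 genes of the NRF2 pathway, 14 were higher and 12 lower, and the median was 0.08. None was higher by over 2-fold and 4 were lower by over 2-fold. NFE2L2, which encodes NRF2, rose from 137 and 131 to 203 and 198 CPM, and PGD, which makes NADPH in the pentose phosphate route, rose from 79.8 and 80.99 to 147 and 169 CPM. The falls over 2-fold were of SQSTM1 (from 760.2 and 764 to 201 and 202 CPM), the autophagy receptor that also binds KEAP1, TXNRD1, ABCC1 (from 181 and 183 to 67.9 and 73.4 CPM), an exporter of glutathione conjugates, and CBR1 (from 176 and 186 to 87.9 and 86.3 CPM), a carbonyl reductase. Of the 32 members without a word in their 3′ UTR, 13 were higher and 8 lower. Of 30 genes of glutathione synthesis and transfer, 6 were higher and 7 lower (6 and 4 of the 24 without a word). The share called in that list was 43.3%, against 50.7% of all genes. The largest falls there were of GLO1 and of LANCL1 (from 205 and 191 to 65.5 and 62.5 CPM), a glutathione-binding protein, and GCLC, the catalytic chain of the rate-limiting ligase, rose by 0.29.

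Iron and heme genes included 13 higher and 6 lower of 28 tested (median 0.07). CPOX, coproporphyrinogen oxidase of heme synthesis, rose 3.19-fold, from 68.2 and 63.2 to 206 and 213 CPM. SAT1, the polyamine acetyltransferase that has been tied to ferroptosis, rose from 95.99 and 91.4 to 199 and 184 CPM. TFRC, the transferrin receptor, and ACSL4, which loads polyunsaturated fatty acids for phospholipids, rose by 0.42 and 0.62 on the log2 scale. CPOX rose alike in MDA-MB-231 (log2 1.55), and the difference was not called (adjusted p = 0.196 by edgeR's quasi-likelihood test).

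Mitochondrial genes moved gene by gene. Of 34 genes of the TCA cycle and malate-aspartate shuttle, 10 were higher and 10 lower, and MDH2 was the only 1 past 2-fold; without any single MDA-MB-231 library 6 were higher. The others that fell most were SUCLG2 (to 58.1% of control) and GOT2 (to 63.3%), and IDH1 rose by 0.49. Of 76 nuclear-encoded respiratory chain genes 22 were higher and 10 lower (21 and 6 of the 65 without a word). Those past 2-fold were ATP5G2, UQCRH and UQCRHL, which fell, and UQCR10, a small subunit of complex III, which rose from 34.9 and 37.1 to 79.5 and 87.4 CPM. Of 76 mitochondrial ribosomal protein genes 32 were higher and 9 lower, with a median of 0.14. Without siGPX1 replicate 2 of Hs578T, 11 respiratory chain and 18 mitochondrial ribosomal genes were called higher, and the first count was 12 without control replicate 1 and 11 without any single MDA-MB-231 library.

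Most cell cycle genes tested were lower. Of 40 tested genes of G2 and mitosis, 30 were lower and 2 higher, with a median of -0.24; the falls were mostly small. TOP2A, the topoisomerase that untangles chromosomes, fell from 881 and 867 to 231 and 239 CPM, and CDC20, an activator of the anaphase-promoting complex, fell from 233 and 236 to 103 and 113 CPM; these were the only members past 2-fold. MKI67, the source of the Ki-67 proliferation antigen, fell from 549 and 579 to 294 and 303 CPM. KIF2C, a mitotic kinesin, fell to 52.2% and AURKA, a spindle kinase, to 57.01% of control. The members that rose were CDK1 (from 103 and 98.9 to 123 and 148 CPM) and HJURP (from 193 and 202 to 239 and 279 CPM). In MDA-MB-231 14 of the 40 were higher and 10 lower, and the change differed between the lines for 30. Without siGPX1 replicate 1 of Hs578T, 6 rather than 2 members were called higher.

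Of 43 genes of DNA replication and the G1/S step, 25 were lower and 6 higher (median -0.20). MCM5, a subunit of the replicative helicase, fell from 155 and 162 to 53.8 and 55.1 CPM. CCNE1, cyclin E1, fell from 10.7 and 11.4 to 3.57 and 4.15 CPM, and SLBP, the histone mRNA binding protein, from 69.4 and 71.2 to 32.3 and 32.2 CPM. LIG1, the replicative ligase, fell to 47.6% of control and E2F1 to 66.9%. CDK2, the partner of cyclin E, fell from 51.6 and 49.8 to 21.9 and 22.1 CPM, and CCND1, cyclin D1, fell from 517 and 544 to 347 and 348 CPM. The CDK inhibitors did not rise together: CDKN1A (p21) fell to 57.3% and CDKN2C (p18) to 40.6% of control, while CDKN2B (p15) rose from 23.1 and 27.4 to 51.01 and 36.5 CPM and CDKN1B (p27) by 0.42 on the log2 scale. GADD45B, a stress-induced gene, rose from 24.8 and 24.5 to 48.6 and 52.2 CPM.

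Promoters of the G2/M genes carry letters that are read by NF-Y (CCAAT) and by the DREAM and MuvB complexes (TTTGAA). On both strands of the 300-base windows, CCAAT was present in 22 of 31 promoters (71.0%) of members called lower, against 34.6% of all promoters, and TTTGAA in 20 of 31 (64.5%) against 15.2%. Over promoters of all 40 tested members the shares were 75.0% and 63.6%, so the members called lower and the whole list had similar shares. The 250 bases before the starts of the pair that fell by over 2-fold are shown, TOP2A (chr17:40417897-40418146, minus strand) and CDC20 (chr1:43358731-43358980, plus strand), 5′ to 3′ on the gene's strand, with CCAAT and TTTGAA on either strand in capitals. TOP2A held 4 CCAAT and 2 TTTGAA matches and CDC20 held 2 of each, with no overlap between them.
TOP2A promoter: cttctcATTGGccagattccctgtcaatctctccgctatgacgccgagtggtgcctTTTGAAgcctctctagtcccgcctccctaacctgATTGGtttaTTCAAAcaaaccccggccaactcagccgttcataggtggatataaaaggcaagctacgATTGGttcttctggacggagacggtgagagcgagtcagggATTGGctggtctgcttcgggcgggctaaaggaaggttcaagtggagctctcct
CDC20 promoter: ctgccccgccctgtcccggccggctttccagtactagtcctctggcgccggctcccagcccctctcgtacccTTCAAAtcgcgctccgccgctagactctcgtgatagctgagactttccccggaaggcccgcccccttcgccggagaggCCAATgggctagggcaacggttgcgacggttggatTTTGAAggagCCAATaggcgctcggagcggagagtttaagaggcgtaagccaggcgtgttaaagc

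Among interferon-stimulated genes, sterol genes, metallothioneins and proteasome subunits more members were called lower than higher. Of 45 interferon-stimulated genes 22 were lower and 3 higher, with a median of -0.20. OAS3, a sensor of double-stranded RNA, fell from 63.6 and 62.4 to 23.1 and 24.7 CPM, and its 3′ UTR held the 8-base word. GBP1, a guanylate-binding protein, fell from 139 and 137 to 86.9 and 73.00 CPM, and IFIT1 from 42.7 and 38.4 to 24.2 and 21.7 CPM. IFI27 was a member that rose, by 0.83 on the log2 scale, and the count of members higher was 1 without control replicate 2 or siGPX1 replicate 1. Without members holding a word, 18 of 38 were lower and 3 higher.

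Of 13 metallothioneins and zinc transporters, 9 were lower and 2 higher, with a median of -0.69. Of the 11 with a searched 3′ UTR and no word, 8 were lower and 1 higher. Metallothioneins bind zinc and are induced by the factor MTF1. MT1E fell from 42.95 and 37.5 to 12.8 and 13.1 CPM and MT1X from 20.3 and 21.6 to 9.78 and 10.99 CPM, beside MT2A above; these are near-identical in sequence and their shares of reads are uncertain. SLC39A14, a zinc and iron importer, fell from 476 and 448 to 145 and 133 CPM, and MTF1 fell from 46.04 and 47.6 to 28.1 and 28.4 CPM. Of 41 sterol and fatty acid synthesis genes 19 were lower and 3 higher (median -0.14). FASN, fatty acid synthase, fell from 233 and 238 to 120.1 and 117 CPM, and ACLY, ATP citrate lyase, from 537 and 539.9 to 278 and 262 CPM. FADS2, a desaturase, and STARD4, a sterol carrier, fell to 43.7% and 40.8% of control, and INSIG1, which retains the SREBP complex, rose from 28.2 and 24.7 to 41.4 and 45.2 CPM. Of 37 proteasome subunits 18 were lower and 5 higher. PSMD10, an assembly chaperone of the regulatory particle that the list takes in by its symbol, and PSMD3, a subunit of that particle, moved in opposite directions, PSMD10 from 42.9 and 41.9 to 16.8 and 14.7 CPM and PSMD3 from 76.1 and 77.9 to 186 and 213 CPM.

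Secreted cytokines and death receptors changed in both directions. Of 13 tested chemokines 6 were lower and 2 higher. Beside CX3CL1 and CCL2, IL8, the neutrophil attractant also called CXCL8, fell from 539 and 576 to 233 and 204 CPM. CXCL12, the ligand of CXCR4, rose from 634 and 596 to 966 and 1043 CPM. CSF1, the macrophage growth factor, fell from 634 and 641 to 158 and 150.3 CPM, to 24.2% of control, and its 3′ UTR held a 7-base word. CSF2 fell from 11.4 and 13.5 to 4.08 and 4.39 CPM, and IL1B rose from 2.03 and 1.80 to 6.12 and 5.53 CPM from low counts. Of 27 ligands and receptors of the TNF family, 7 were higher and 7 lower, and the 51.9% called was near the 50.7% of all genes. TNFSF10, the death ligand TRAIL, rose 7.13-fold, from 0.978 and 1.33 to 7.23 and 9.28 CPM, while the death receptor FAS fell from 48.7 and 42.96 to 14.9 and 17.2 CPM and TNFRSF21 from 742 and 700.5 to 231 and 217 CPM. TNFRSF1A, the main TNF receptor, rose from 89.1 and 91.5 to 165 and 181 CPM. TRAF1, an adaptor of these receptors and an NF-kappaB target, fell from 128 and 127 to 52.9 and 48.99 CPM. Of the 27 TNF family genes, the 19 with a searched 3′ UTR and no word had 6 higher and 4 lower.

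Immediate early factors and growth factor receptors changed in both directions. Of 24 AP-1 and immediate early factors 10 were higher and 5 lower (median 0.13). These counts were 6 and 3 without control replicate 2, 9 and 3 without siGPX1 replicate 2, and 6 and 5 without any single MDA-MB-231 library. FOSL1, the AP-1 subunit FRA-1, fell from 194 and 218 to 79.7 and 81.7 CPM. MYC rose from 64.6 and 63.7 to 139 and 142 CPM, IER3 from 229.5 and 217 to 438 and 459.9 CPM and JUND from 31.1 and 32.6 to 55.2 and 59.1 CPM. Of 23 genes induced as feedback by MAP kinase signalling, 8 were higher and 9 lower; SPRY4, a Sprouty inhibitor, fell from 14.8 and 14.7 to 5.44 and 4.96 CPM. Of 40 receptor tyrosine kinases and ligands 13 were higher and 7 lower, and the 50% called was near the 50.7% of all genes. AXL, a receptor of the TAM family, fell from 1105 and 1102 to 438 and 437 CPM; its relative TYRO3 fell from 24.4 and 26.2 to 10.8 and 11.4 CPM. FGFR1 fell from 184 and 178 to 58.4 and 54.9 CPM. IGF1R rose 3.14-fold, from 13.2 and 11.6 to 42.8 and 35.5 CPM, and PDGFRA 2.17-fold, from 245 and 225 to 479 and 542 CPM. MET, the receptor of HGF, rose by 0.48 on the log2 scale. Without members holding a word, 11 of 31 were higher and 3 lower, against 32.1% and 19.5% of all genes without a word.

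Genes of adhesion and migration moved in both directions in similar numbers. Focal adhesions link integrins to actin through adaptors and the kinase FAK (PTK2). Of 40 tested genes of this machinery 15 were higher and 16 lower, and of the 32 without a word 14 were higher and 10 lower. PXN, the scaffold paxillin, rose from 48.1 and 48.4 to 139 and 134 CPM, and NEDD9, a docking protein of the CAS family, rose from 2.33 and 2.59 to 7.65 and 5.62 CPM from low counts. GIT1, which binds paxillin, fell from 48.4 and 45.5 to 16.3 and 18.4 CPM, and ACTN1, alpha-actinin-1, fell from 732 and 735 to 467 and 431 CPM. PTK2 itself was called with a small fall, to 89.5% of control, and SRC fell to 68.2%. Of 26 integrins and other matrix receptors 9 were higher and 8 lower. CD44, a hyaluronan receptor, rose from 1154 and 1137 to 2144 and 2221 CPM. SDC4, a syndecan of focal adhesions, rose from 183 and 180.1 to 319 and 343 CPM, and ITGA4, the integrin alpha4 chain that pairs into a receptor for VCAM1, rose from 50.6 and 47.5 to 91.8 and 88.5 CPM. ITGA7 and ITGA10 fell, both from under 5 CPM.

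Of the transcription factors of epithelial-mesenchymal transition and their markers, 9 of 18 were higher and 3 lower. SNAI1, the Snail repressor, rose from 3.31 and 2.98 to 8.59 and 7.89 CPM, and TWIST2 from 5.79 and 5.02 to 11.6 and 12.2 CPM, both from low levels, while ZEB1 fell to 84.02% of control. N-cadherin (CDH2) rose from 504 and 525 to 818 and 752 CPM, and the mesenchymal cadherin CDH11 fell from 399 and 393 to 168 and 147 CPM. Of 26 genes of the YAP and TEAD pathway 10 were higher and 8 lower. YAP1 rose from 271 and 262 to 432 and 413 CPM while its paralogue WWTR1 fell from 275 and 265 to 107 and 100.02 CPM, and the 3′ UTR of WWTR1 held both 7-base words at separate sites. Their DNA-binding partners TEAD2 and TEAD4 rose 2.31- and 2.02-fold. The classical target CTGF fell to 71.00% of control, and ANKRD1 fell to 17.5% from under 3 CPM.

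Of 18 fibroblast and mesenchymal markers 12 were higher and 1 lower, with a median of 0.26; without siGPX1 replicate 1 of Hs578T 2 were lower. Of the 15 without a word, 11 were higher and 0 lower. Their summed level was between 80950 and 81460 CPM in the controls and between 93820 and 105700 CPM after depletion. DCN, decorin, rose from 95.01 and 91.1 to 306 and 286 CPM, and THY1 fell from 916 and 938 to 398 and 377 CPM. ACTA2, smooth muscle actin, fell from 204 and 225 to 123 and 80.97 CPM. KRT18, a keratin of simple epithelia, rose from 189.7 and 191 to 548 and 618 CPM. It is 1 of 10 luminal epithelial markers tested, of which 2 were higher, 1 lower and 7 not called (median 0.02). Of 27 collagen chains 8 were higher and 9 lower. COL3A1 rose from 587 and 581 to 1084 and 853 CPM, and 5 chains rather than 9 were lower without siGPX1 replicate 2. Among other matrix proteins, TNC, tenascin-C, rose from 39.6 and 42.1 to 98.1 and 82.2 CPM, LAMA4 rose from 16.8 and 15.1 to 51.4 and 50.5 CPM and LAMC1, the laminin gamma1 chain, fell from 2039 and 2007 to 1240.2 and 1142 CPM. Among proteases and their inhibitors, the plasminogen activators went apart: PLAT rose from 77.3 and 74.8 to 179 and 219.6 CPM and PLAU fell from 312 and 349.7 to 194 and 182 CPM. ADAM10, a sheddase, rose from 112 and 111 to 245 and 238 CPM, and TIMP2, an inhibitor of metalloproteases, fell from 605 and 581 to 233 and 205 CPM. TGFBR1, the type I receptor of TGF-beta, rose 2.96-fold, from 17.8 and 15.6 to 49.1 and 49.8 CPM, and FST, follistatin, fell from 14.5 and 14.1 to 4.76 and 6.18 CPM.

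The effect of the depletion differed between Hs578T and MDA-MB-231 for 2428 genes (17.0% of those tested), by a test of the difference itself in edgeR's quasi-likelihood framework with Benjamini-Hochberg adjustment. The count was 1519 and 1579 without siGPX1 replicate 1 and 2 of MDA-MB-231. Of the 2428, 600 (4.21% of all genes tested) were higher in Hs578T and not called in MDA-MB-231. Another 294 (2.06% of all tested) were lower in Hs578T and not called there. Called in opposite directions were 119 genes (0.835% of all tested) that rose in Hs578T and 100 (0.702% of all tested) that fell in it. SCG2 and TNFRSF11B rose in Hs578T and had log2 changes of 0.25 and -0.05 in MDA-MB-231, where they were not called. C3 was 271 and 266 CPM in the MDA-MB-231 controls and 257 and 252 CPM in its siGPX1 libraries, and SOCS3 was 34.00 and 35.4 CPM in the MDA-MB-231 controls and 30.3 and 32.4 CPM in its siGPX1 libraries; neither was called in that line. PARP16, an ADP-ribosyltransferase of the endoplasmic reticulum, rose from 3.23 and 3.61 to 12.8 and 10.5 CPM in Hs578T and was not called in MDA-MB-231. C4B and C10orf10 belong to the same group, with at most 1.62 and 2.29 CPM in any MDA-MB-231 library.

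FOSL1 was among the falls that differed, with 361 and 365 CPM in the MDA-MB-231 controls and 368 and 359 CPM in its siGPX1 libraries and an adjusted p of the difference of 1.20e-08 by edgeR's quasi-likelihood test. FZD8, a Wnt receptor, fell from 54.2 and 56.8 to 21.9 and 19.1 CPM in Hs578T. It was not called in MDA-MB-231, where it had at most 3.95 CPM in any library. VCAM1, LNP1, RASA4 and GTF2H2B also fell in Hs578T and were not called in MDA-MB-231, with GTF2H2B a copy of a duplicated gene whose reads are uncertain. In MDA-MB-231 VCAM1 had at most 1.43 CPM, LNP1 at most 2.07 CPM and RASA4 at most 6.03 CPM in any library. At such low levels a fall in that line would be hard to see. DKK1, a secreted Wnt antagonist, fell from 8.88 and 9.09 to 3.66 and 4.07 CPM in Hs578T and rose by 0.19 on the log2 scale in MDA-MB-231, and FAM43A fell from 55.1 and 57.6 to 25.2 and 23.3 CPM in Hs578T and rose by 0.47. IL6 was the reverse case, with 94.1 and 91.3 CPM in the MDA-MB-231 controls and 24.5 and 23.7 CPM in its siGPX1 libraries. IL11 fell in both lines, by 1.31 on the log2 scale in Hs578T and with a log2 change of -3.39 in MDA-MB-231. By contrast ARL6IP1 rose by 2.06 and 2.13 and BAG2 changed by -2.13 and -2.14 in the lines, differences that were not called.

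**Figure D5:**
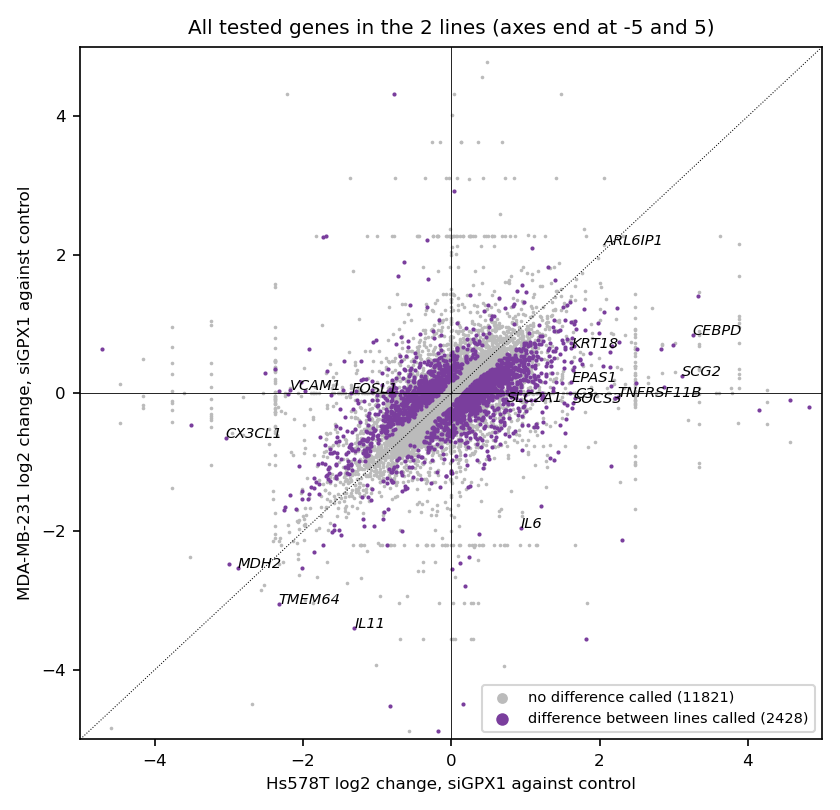
Each point is a tested gene, with its log2 change in Hs578T on the horizontal and in MDA-MB-231 on the vertical axis, both siGPX1 against control, purple where the difference between the lines was called; genes beyond 5 on either axis are not drawn. The rows and columns of points at fixed values are genes with few counts in a line; SCG2, TNFRSF11B, SOCS3, C3 and EPAS1 lie to the right near 0 on the vertical axis, and IL6 lies at 0.94 and -1.94.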

How the data were processed

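Gene expression was measured in 2 control and 2 siGPX1 libraries of each of 2 breast cancer cell lines. The submitters' processing notes name FastQC, RSEM 1.2.12 and build hg19. The deposited expected counts are RSEM's estimated reads per gene, in which reads that fit several genes are shared out; between 94.7 and 94.9% of those above 0 were within 0.005 of a whole number, and all were rounded. The deposited TPM values are those estimates per length. Neither aligner, read length nor strand setting is given in the sources used here. The deposited FPKM values were not used.

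The 14249 genes kept by edgeR 4.0.16 (filterByExpr, 4 groups) of 23686 were scaled by TMM, and 1 model with 4 group means took in all 8 libraries, leaving 4 residual degrees of freedom. The quasi-likelihood test was adjusted by Benjamini-Hochberg and called under 0.05, with no fold minimum. The standard error was taken as the size of the log2 change divided by the root of its F value, which understates that of large changes. The script was tested on simulated data. At the depth of these libraries, genes of a few CPM carry the larger errors.

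The members and the 58 gene lists were chosen with earlier results of these data known, as was the 8-base word, and no list was tested. Genes named were GPX1, the 20 largest called rises and falls with a mean of at least 5 CPM in Hs578T and groups apart, the 10 largest TPM differences each way, up to 8 each way that differed between lines, and list members past 2-fold or, failing these, the smallest p; others named in the text were added after their values were seen. Unnamed loci and small RNA genes were passed over. Alternatives were DESeq2 1.42.0 and its size factors, no filter, a stricter filter (5 CPM in 2 libraries), Hs578T alone, a replicate block, limma 3.58.1 on log2(TPM + 1), and leaving out each library. 3′ UTRs were the exonic bases after the stop codon in GENCODE release 29 (any transcript, 30 bases or more; 91.9% of tested genes had 1). Promoters came from a RefSeq table of GRCh38.p14. Samples were grouped by title.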

Additional observations from a re-analysis of the deposited data

Results flagged for a closer look

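The change after GPX1 depletion differed between Hs578T and MDA-MB-231 by at least 1.5 on the log2 scale, with an adjusted p under 0.05 in edgeR's quasi-likelihood test of the difference, for 21 of the genes named above. Values are the log2 change in Hs578T minus that in MDA-MB-231. Among signalling genes of the IL-6 family the difference was 2.88 for IL6, 2.08 for IL11, 2.12 for CISH, 1.79 for SOCS3 and 1.66 for SOCS2. IL6, TNC, FAM43A and ANKRD1 were called in both lines with opposite signs, with log2 changes in Hs578T and MDA-MB-231 of 0.94 and -1.94 for IL6. Among secreted proteins and receptors it was 2.86 for SCG2, 2.30 for TNFRSF11B, 2.19 for TNFSF10, 1.60 for IL1B, 1.59 for TNC and 1.75 for THBD. For the complement genes it was 1.75 for C3 and 2.27 for both C4B and C4B_2, which share reads. For the transcription factor CEBPD it was 2.42, and for CCDC71L and C10orf10 it was 1.86 and 2.05. The genes with a negative difference were ANKRD1 (-2.80), CX3CL1 (-2.39), VCAM1 (-2.22) and FAM43A (-1.69). Of these, VCAM1 had at most 1.43 CPM in any MDA-MB-231 library. IL11 fell in both lines and its positive difference is a smaller fall in Hs578T. With 2 libraries in a group, single outlying libraries were not looked for by a test.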

How the results depend on the processing

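Of 15 alternative settings, the call and direction of GPX1 held in all, with log2 changes between -4.63 and -4.56 when any library was left out. Without any single library, genes higher numbered 3315 to 3695, genes lower 2729 to 3480, higher by over 2-fold 350 to 386, lower by over 2-fold 510 to 593, and genes that differed between the lines 1519 to 2737. Other counts that moved by over 1.5 times were the genes that differed between the lines by DESeq2 (1279), the genes higher by over 2-fold with the stricter filter (236) and by limma on log2(TPM + 1) (188), and the genes lower by over 2-fold among those with no word in the 3′ UTR (261), a choice made after seeing the data. Replicate numbers were not shown to pair the samples: the deviations of same-numbered Hs578T libraries correlated at -0.03, and with the replicate block 4078 genes were higher and 3148 lower. Of the list counts, DESeq2 moved glutathione genes to 3 higher and 4 lower and collagens to 5 and 5, and limma on log2(TPM + 1) called 7 rather than 12 fibroblast markers higher. All 238 named genes called in Hs578T other than GPX1 kept their call and direction in each setting that tested them. Among the 7 not called, 3 went to 0 or changed sign when a library was left out: CDH1 (between 0 and 4.87, past the threshold at the latter, without siGPX1 replicate 2), EPCAM (between -0.85 and 3.35) and GPX7 (between -0.019 and 0.19). Depth limits genes of a few counts such as CDH1 and EPCAM, whose values rest on single libraries.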

Other observations

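Guidance and cell-contact genes of Hs578T moved in both directions. Of 39 tested semaphorins, plexins, ephrins and Eph receptors, 15 were higher and 14 lower in the siGPX1 libraries (median log2 change -0.02). EPHB1, a receptor for the B ephrins, fell from 136 and 133 to 38.3 and 35.97 CPM, and EPHA2 fell from 199 and 204 to 96.2 and 101 CPM. EFNA1, a ligand of EPHA2, rose from 6.09 and 4.16 to 12.2 and 12.5 CPM, and NRP2, a co-receptor of semaphorins and VEGF, rose from 100.5 and 99.5 to 180.2 and 149 CPM. Among 11 membrane mucins and glycocalyx genes 5 were higher and 0 lower, with GPC6, a glypican, rising from 23.5 and 23.4 to 82.8 and 73.2 CPM beside MUC1. Among 19 genes of regulated secretion 6 were higher and 7 lower (5 and 4 of the 15 without a word in the 3′ UTR). PAM, which amidates peptide hormones, rose from 212 and 202 to 375 and 335 CPM, and the granule GTPases went apart, with RAB27B rising from 19.2 and 15.2 to 41.7 and 35.97 CPM and RAB27A falling from 19.4 and 19.8 to 10.3 and 8.87 CPM.

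Of 45 genes of the TGF-beta, activin and BMP pathway, 20 were higher and 8 lower (median 0.15). The inhibitor SMAD7 rose from 38.1 and 35.4 to 64.9 and 63.97 CPM, and BMPR2, the type II receptor of BMPs, fell from 171 and 162 to 102 and 89.4 CPM. Of 37 Wnt ligands, receptors and antagonists 11 were higher and 16 lower; WNT5A fell from 124 and 124 to 84.4 and 72.2 CPM and AXIN1, a scaffold of the destruction complex, rose from 15.3 and 15.7 to 28.6 and 28.6 CPM. Of 30 BCL2 family and caspase genes 13 were higher and 7 lower. BIRC2, an inhibitor of apoptosis, fell from 151 and 148 to 82.3 and 71.7 CPM, and APAF1, the core of the apoptosome, rose from 32.2 and 31.8 to 48.97 and 47.9 CPM. Of 41 lysosome genes 19 were higher and 14 lower; ATP6V0B, a subunit of the proton pump, fell from 97.04 and 101 to 28.6 and 30.03 CPM. Of 36 ATF4 targets and unfolded protein response genes 8 were higher and 15 lower, with SLC7A5, an amino acid carrier, falling from 332 and 342 to 197 and 185 CPM.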
